A study of Rattus norvegicus with 6 samples.

Results

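Eif4b, the gene of eukaryotic translation initiation factor 4B, was described in 6 transplanted rat livers through a single array probe. It was 1 of 38 genes that could be named on these arrays, 32 of which were detected. The gene was chosen by its scaled signal in these same livers, in which the group with brain-dead donors lay below the other group. Its levels in the groups are therefore given as a description, with no test, and nothing is supported with them. The probe was named Eif4b because its accession matched that gene in the RefSeq table of the rat assembly GRCr8.

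The study asked how liver grafts from brain-dead donors differ in RNA from other grafts after liver transplantation (LT). All animals were male Lewis rats, and their age is not given in the sources used here. In the BDDLT group, 3 rats had received the liver of a brain-dead donor. In the control group, called LT below, 3 rats had received the liver of a donor that had only undergone a sham operation. Both groups shared cold flushing with University of Wisconsin solution and grafting with cuffs in which the hepatic artery was not rejoined. Liver tissue was taken 12 h after LT, and the RNA of each liver was hybridized to 1 single-colour Arraystar Rat LncRNA array.

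Eif4b is an RNA-binding protein that stimulates the RNA helicase eIF4A, which unwinds the leader of an mRNA so that the small ribosomal subunit can attach and scan for the start codon. Kinases of the mTOR and MAPK pathways phosphorylate Eif4b in response to nutrients and growth factors. The hepatocyte makes most plasma proteins and is among the cells with a high rate of translation. An array measures the amount of RNA and gives neither the amount of the protein, nor its phosphorylation, nor the rate of translation.

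The Eif4b probe was printed at 10 positions on each array. On all 6 arrays, all 10 spots were well above background and 0 were saturated. A spot was left out as an outlier in BDDLT replicate 2 and in LT replicate 1, at the same position in both, so that 9 spots remained there. The mean signal of the probe was between 50.3 and 121 times the lowest signal called well above background on the same array. Within an array, the log2 values of its spots had an SD of 0.05 to 0.08.

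Before any scaling between arrays, the Eif4b signal was 449.6, 469 and 469 intensity units in BDDLT replicates 1, 2 and 3. In LT replicates 1, 2 and 3 it was 646, 613 and 571 units. The lowest signal of an LT liver was thus above the highest signal of a BDDLT liver, also at the level of single spots, where the highest BDDLT spot was at 496 and the lowest LT spot at 533 units. The group means were 463 ± 11.2 (SD, n = 3) in BDDLT and 609.5 ± 37.6 (SD, n = 3) in LT.

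The signals were then set relative to the 75th percentile of each array, as log2 values in which 0 is that percentile. On this scale Eif4b was at 0.90, 0.90 and 0.78 in BDDLT replicates 1, 2 and 3. It was at 1.57, 1.44 and 1.15 in LT replicates 1, 2 and 3. All 3 BDDLT livers were below all 3 LT livers, and LT replicate 3 was the lowest of its group. The means were 0.86 ± 0.07 (SD, n = 3) in BDDLT and 1.39 ± 0.22 (SD, n = 3) in LT, a difference of -0.53 on the log2 scale. The BDDLT level was 69.3% of the LT level, which is a 1.44-fold difference. In whole liver tissue, fewer cells of a type and less RNA per cell cannot be told apart.

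**Figure D1:**
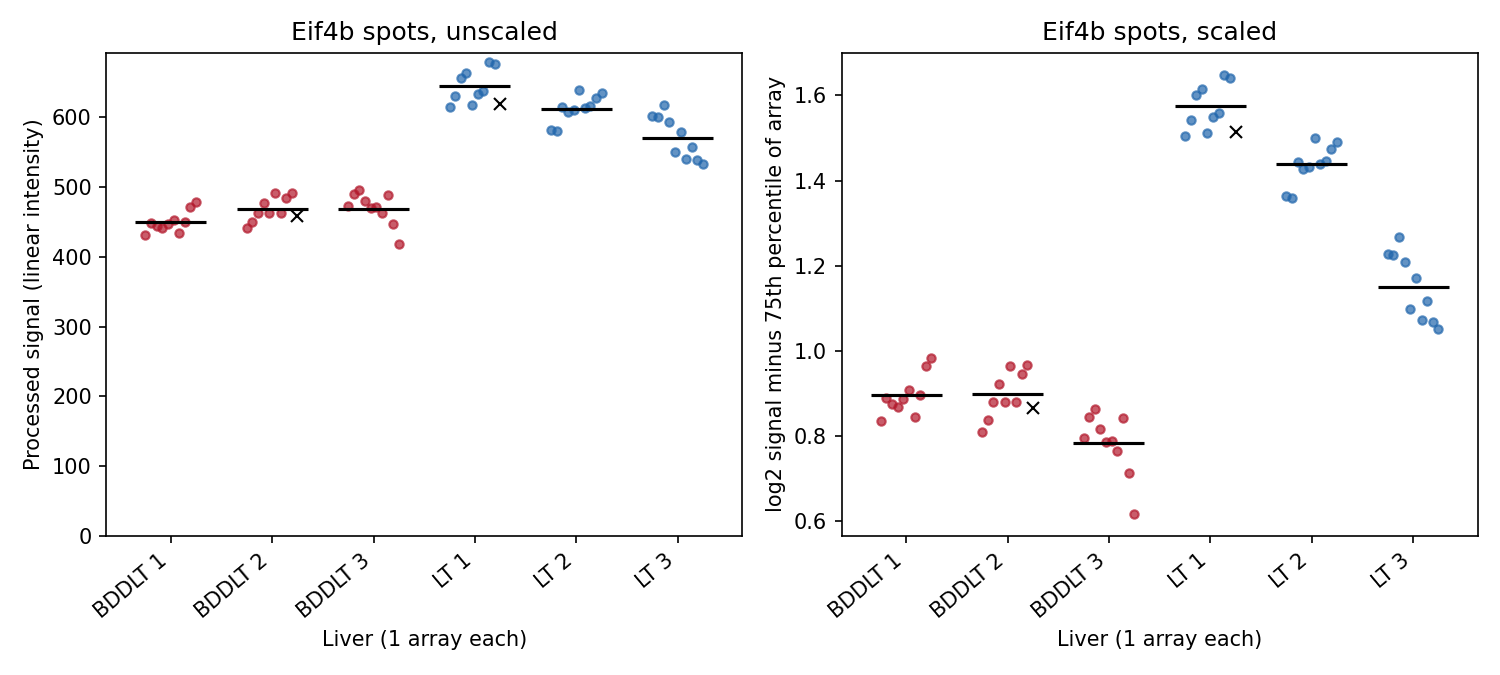
Each point is 1 of the 10 spots of the Eif4b probe in 1 liver, as processed signal on a linear axis from 0 (left) and as log2 signal relative to the 75th percentile of the array (right), with BDDLT in red and LT in blue. Spots run from left to right by their row on the array, lines are array means, and crosses are outlier spots left out of them; every BDDLT spot lies below every LT spot on both scales.

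From lowest to highest on this scale, the order was BDDLT replicates 3, 1 and 2, and then LT replicates 3, 2 and 1. BDDLT replicates 1 and 2 differed by 0.0029, which is less than the SD of their spots. The step from BDDLT replicate 2 up to LT replicate 3, which separates the groups, was 0.25. On this scale, that step was smaller than the step of 0.29 from LT replicate 3 to LT replicate 2. It was little larger than the SD of 0.22 among LT livers. On this scale, the gap between the nearest livers of the groups was therefore of about the size of that SD. The difference of the group means, -0.53, was larger in size than that SD and than the range of 0.42 among LT livers. The spots of each array lay close together. How the step between the groups compared with the spread among LT livers depended on the scaling. With no scaling, the step between the groups was 0.28, and LT replicates 1, 2 and 3 were at 9.33, 9.26 and 9.16. After quantile normalization the step was 0.29, with these livers at 9.49, 9.34 and 9.11. With median scaling the groups overlapped.

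The probe was lower in BDDLT than in LT at 10 of 10 positions, with no overlap of the livers at any of them. This had to be so, since every BDDLT spot lay below every LT spot. Over the 9 positions with a value on all arrays, the difference ranged from -0.56 to -0.50. Spots of an array share the same RNA, so the positions repeat the measurement and are not replicates of the groups. The SD between spots was larger for 25 of the 33 named and detected probes than for Eif4b. Of the 3 named probes closest to it in signal, Enpp1 had a smaller median SD between spots, at 0.046, and Pld1 and Trim2 had larger ones, at 0.068 and 0.087, against 0.054 for Eif4b.

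The first slide held replicates 1 and 2 of BDDLT and LT, and the second slide held replicate 3 of each. On the first slide, with 2 livers a group, the BDDLT minus LT difference of Eif4b was -0.61. On the second slide, with 1 liver a group, it was -0.37. The direction was the same on both slides, as it had to be where the groups did not overlap. Whether the sizes differ was not tested. Taken as pairs by replicate number, the 3 differences were -0.68, -0.54 and -0.37, with a mean of -0.53 ± 0.16 (SD, n = 3). BDDLT was lower in 3 of 3 pairs, which also follows from the lack of overlap.

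The slide is another contrast than the one that chose the gene, and it was tested, on the same 6 values and with 1 liver a group on the second slide. With the group in the model, Eif4b was lower on the second slide by a log2 difference of -0.23 (SE 0.098). The adjusted p from limma was 0.208. The model holds the group difference by which the gene was chosen. The SE and the p values of Eif4b are therefore not free of that choice, and nothing is supported with them. The difference between slides did not pass the threshold of 0.05, and 1355 of 27192 tested probes, or 4.98%, did. The Eif4b difference was past the threshold with median scaling, at -0.48 (limma, adjusted p = 0.0382), and was -0.055 with no scaling. It was negative under all 18 alternatives, among which the variance and detection filter cannot change it. Leaving out a liver had to keep its sign too, since replicate 3 was the lowest of each group. The count of 1355 was 1040 without LT replicate 1 and 0 without any one of the other 5 livers, where between 4665 and 6282 probes had an unadjusted p under 0.05. Of the 1355 probes, 1059 were higher and 296 lower on the second slide, and this split depended on the scaling, with 499 higher and 648 lower after quantile normalization and 971 higher and 4224 lower with median scaling. It was 544 and 656 in the deposited normalized values, 599 and 319 with normexp background correction, and 3060 and 217 with no scaling. Between slides, Eif4b differed by -0.36 in LT and by -0.11 in BDDLT. The second slide also had the higher local background, with a median around the Eif4b spots of 18 and 17.8 units in replicate 3 of BDDLT and LT, against values from 13.5 to 15 units on the first slide. The part of the background in the slide difference was not tested.

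Within the arrays, the position of a spot went along with its signal in opposite ways on the slides. On the first slide, the Eif4b spots in the 5 highest rows were brighter than those in the 5 lowest rows on 4 of 4 arrays, by 0.04 to 0.07 on the log2 scale. On the second slide they were dimmer, with differences of -0.076 in BDDLT replicate 3 and -0.11 in LT replicate 3. This was seen after the values were plotted and was not tested.

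The scaling affected whether the groups overlapped. The difference of Eif4b was negative under all 9 other ways of processing the spots and scaling the arrays, between -0.60 with scaling to reference genes and -0.40 with no scaling. In 8 of these 9, all BDDLT livers were below all LT livers. With the array median in place of the 75th percentile, LT replicate 3 was at 3.93, below BDDLT replicates 1 and 2 at 3.96 and 3.95. Relative to the 75th percentile, the median of all probes was -2.82 and -2.78 on the second slide in BDDLT and LT, and between -3.06 and -3.02 on the first. Scaling to the median thus lowered both livers of the second slide relative to the others.

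**Figure D2:**
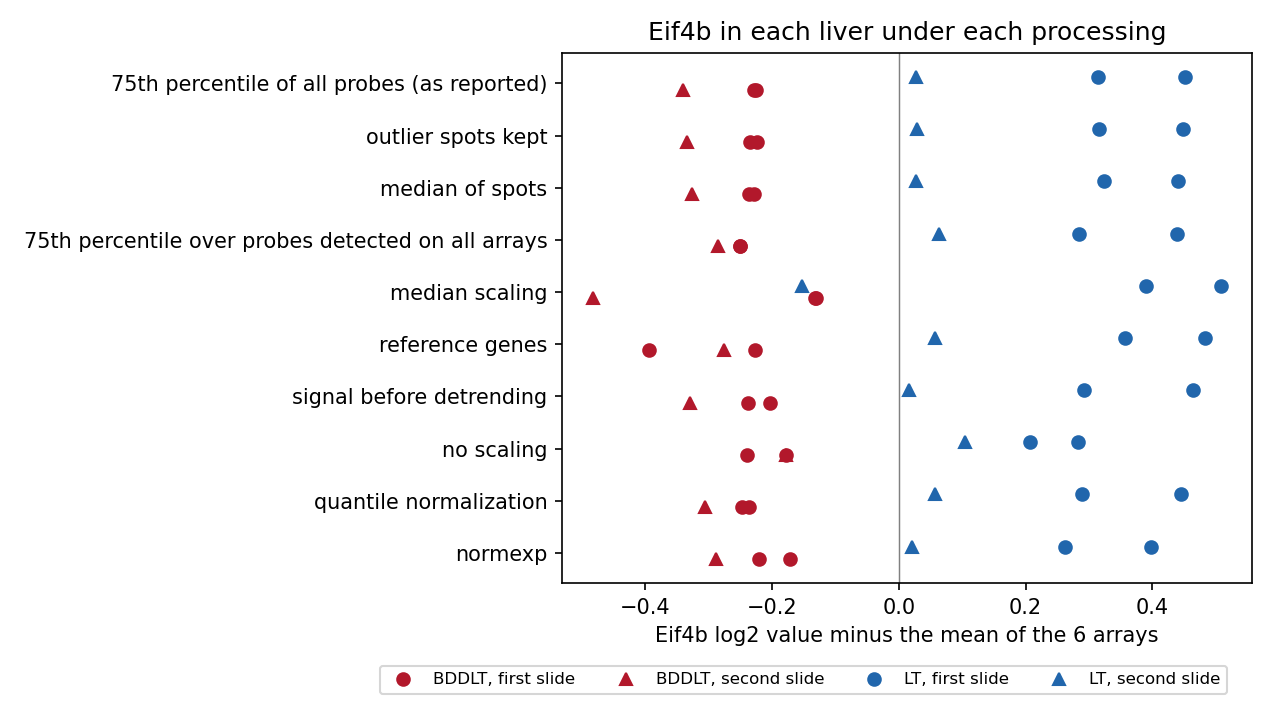
Each row is a way of processing, and each point is the Eif4b log2 value of 1 liver minus the mean of the 6 arrays, with BDDLT in red, LT in blue, circles for the first slide and triangles for the second. The groups overlap only with median scaling, where LT replicate 3 lies below BDDLT replicates 1 and 2.

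Against all detected probes, the Eif4b difference was of moderate size. Of the 27192 tested probes, 6.08% had a lower BDDLT minus LT difference and 12.4% had a larger difference in either direction, while the median difference was -0.025. All BDDLT livers lay below all LT livers for 3406 of these probes, or 12.5%, and above them for 3245. These numbers depended on the scaling and the background correction. BDDLT was below LT for 1253 probes and above it for 4880 with no scaling, below for 2235 and above for 2652 with median scaling, and below for 5177 and above for 2813 with normexp. In a limma fit of the groups, which was added after the data had been seen, 484 probes, or 1.78%, had an adjusted p under 0.05. Since Eif4b was selected on this contrast, no outcome of this fit is given for it. With the replicate block, in which livers of the same number form a pair, 0 probes were called by limma, and 6024 had an unadjusted p under 0.05. That count of 0 depended on the other settings, since the same block gave 1797 calls with normexp, 1260 with a trended and robust variance, 629 over probes detected on all arrays, 369 with scaling to reference genes and 82 with no scaling.

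The spread of Eif4b among livers of a group was compared with that of the other probes. In BDDLT its SD was 0.07, against a median of 0.16 over the tested probes, and 81.8% of them had a larger SD. In LT its SD was 0.22 against a median of 0.19, and 43.7% had a larger SD. The BDDLT livers were thus close together for this gene, while the LT livers were spread about as widely as for the median probe.

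The other genes of translation could hardly be followed. Of 62 listed initiation factors, their partners, kinases and elongation factors other than ribosomal proteins and Eif4b, 0 had a probe with a matched accession, among them eIF4A, eIF4E and eIF4G, with which Eif4b works. For 37277 of the 38321 probes the files give a manufacturer's number and no accession, so these genes may have been measured under such a number. Of the ribosomal protein genes, 2 had a named probe, Rplp1 and Rpl13a.

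Rplp1 encodes a protein of the stalk of the large ribosomal subunit, which binds elongation factors. Its scaled log2 signal was 8.53, 8.54 and 8.56 in BDDLT replicates 1, 2 and 3 and 8.52, 8.63 and 8.66 in LT replicates 1, 2 and 3. The groups overlapped, and the BDDLT minus LT difference was -0.059 (SE 0.086), for which limma gave an adjusted p of 0.826. The difference was above 0 with no scaling, with quantile normalization and in the deposited normalized values.

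Rpl13a encodes another protein of the large subunit and is often used as a reference gene. Its scaled log2 signal was 7.31, 7.36 and 7.32 in BDDLT replicates 1, 2 and 3 and 7.10, 7.31 and 7.40 in LT replicates 1, 2 and 3. The groups overlapped, and the difference was 0.058 (SE 0.11), for which limma gave an adjusted p of 0.871. The difference was below 0 with scaling to reference genes and without LT replicate 1. So 0 of 2 ribosomal protein genes passed the test, against 1.78% of all probes, and a difference of either from Eif4b was not tested.

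Among the 33 named and detected probes, the 5 with the highest and the 3 with the lowest Pearson correlation with Eif4b over the 6 livers were taken. The livers form separate groups for Eif4b, so a high correlation here mostly repeats a difference between groups, and the values share the scaling of the arrays. The correlation was therefore also taken after the mean of each group had been subtracted. All are descriptions of 6 arrays.

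Hprt1, a purine salvage enzyme, had the highest r over the 6 livers, at 0.976, and r = 0.977 once the group means were subtracted. Its scaled log2 signal was 3.98, 3.96 and 3.72 in BDDLT replicates 1, 2 and 3 and 4.56, 4.40 and 4.05 in LT replicates 1, 2 and 3. As with Eif4b on this scale, replicate 3 was the lowest liver in each group and the groups did not overlap. The order of the BDDLT livers for Eif4b depended on the scaling. With no scaling, Eif4b was at 8.81, 8.87 and 8.87 in BDDLT replicates 1, 2 and 3. Of all tested probes, 0.548% had a correlation with Eif4b at least as high.

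Mex3c, an RNA-binding ubiquitin ligase, followed with r = 0.971, and r = 0.913 within groups. It was at -2.47, -2.40 and -2.48 in BDDLT replicates 1, 2 and 3 and at -2.02, -2.06 and -2.17 in LT replicates 1, 2 and 3. Here too replicate 3 was the lowest liver of each group on this scale, though only just below replicate 1 in BDDLT. The groups did not overlap. A high r within groups was not particular to these genes. Of the named probes that were not among those of highest overall r, and picked after their values were seen, Nat1 had r = 0.990 within groups, Gusb 0.960, Pdcd10 0.944, B2m 0.926 and Ndfip1 0.911, while their overall r was at most 0.276. Replicate 3 of both groups is on the second slide, so r within groups also holds a difference between slides. On this scale Hprt1, Mex3c and these genes were lower on the second slide, between -0.43 for Nat1 and -0.080 for B2m. The part of the slide in r was not tested.

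The other probes of this kind were close to Eif4b through the difference between groups more than within them. Magoh, a member of the exon junction complex, had r = 0.834 overall and r = -0.059 within groups. Pgk1, an enzyme of glycolysis, had r = 0.826 and r = 0.439. Cdh2, the gene of N-cadherin, had r = 0.734 and r = 0.054. Their BDDLT minus LT differences were -0.19 for Magoh, -0.16 for Pgk1 and -0.42 for Cdh2, all with no overlap of the groups.

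At the other end, each of the 3 probes of lowest correlation had every BDDLT liver above every LT liver. Ptk2b, a calcium-dependent tyrosine kinase, had r = -0.967, r = -0.850 within groups and a difference of 1.12. Trim2, a ubiquitin ligase, had r = -0.962, r = -0.835 within groups and a difference of 0.83. Cse1l, which returns importin alpha to the cytoplasm, had r = -0.917, r = -0.615 within groups and a difference of 0.17. For each of these 3, and for each of the 5 probes above, the difference kept its sign under every way of scaling that was tried.

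**Figure D3:**
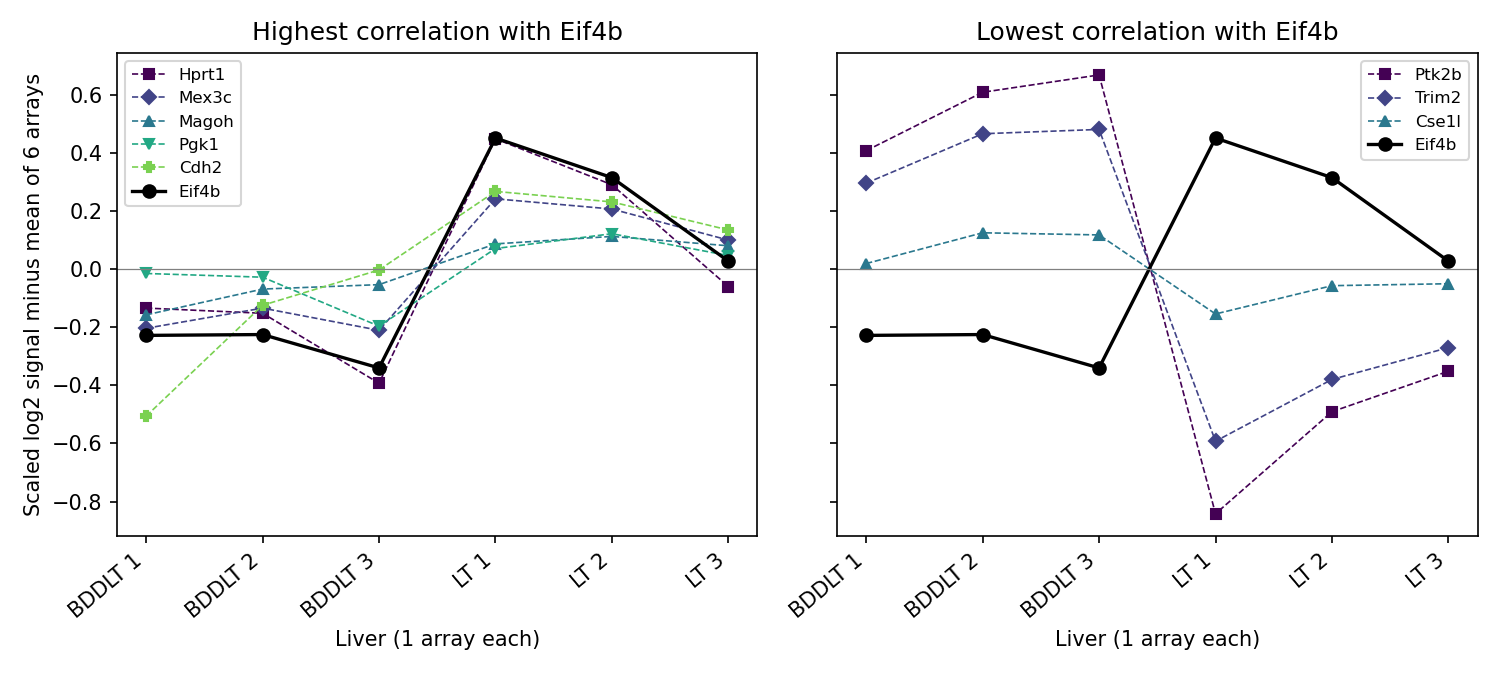
Points are the scaled log2 signal of a gene in 1 liver minus its mean over the 6 arrays, for the 5 named genes with the highest correlation with Eif4b (left) and the 3 with the lowest (right), with Eif4b in black in both. Lines only join the points of a gene and replicates have no order. On this scale, Hprt1 follows Eif4b in both groups, with r = 0.976 over the 6 livers.

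Among the 33 named and detected probes, 8 besides Eif4b were lower in every BDDLT liver than in any LT liver, where 12.5% of all tested probes were, and 5 were higher, namely Ptk2b, Trim2, Cse1l, Actb and Slc28a2, where 3245 of the 27192 tested probes were. Both shares moved with the scaling as given above. The named probes include genes picked by the array's maker as references and are not a sample of the liver's genes. Of the 25 genes on the list of reference genes, 8 had a named probe, and 9 probes of these were detected. The BDDLT minus LT difference was negative in 2 of the 9 and positive in 7, with a median of 0.087. This split depended on the scaling. With scaling to reference genes, Rpl13a and a probe of another gene on the list also turned negative, at -0.011 and -0.042. The B2m difference, which is that median, lay between 0.019 and 0.22 over the other ways of processing. Hprt1 at -0.45 and Pgk1 at -0.16 were lower with no overlap of the groups, and Actb, the gene of beta-actin, was higher with no overlap, at 0.50.

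Hprt1 is on the same list of reference genes that served as one of the scalings. With that scaling, Eif4b was at -5.75, -5.59 and -5.64 in BDDLT replicates 1, 2 and 3 and at -5.00, -4.88 and -5.30 in LT replicates 1, 2 and 3. The groups stayed apart, with a difference of -0.60.

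The makeup of the tissue could not be followed with these probes. Of 14 listed marker genes of hepatocytes, only Cyp2e1, a cytochrome P450 of hepatocytes, had a named probe, and of 32 markers of bile duct, endothelial, stellate, blood and immune cells 0 had one. Cyp2e1 was at 5.27, 6.41 and 6.97 in BDDLT replicates 1, 2 and 3 and at 7.02, 7.24 and 7.37 in LT replicates 1, 2 and 3. All BDDLT livers were below all LT livers, and BDDLT replicate 1 was the lowest. The part of the tissue's makeup in the Eif4b levels was not tested.

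With 3 arrays a group, the precision is limited by their number. The RefSeq table also lists 4 pseudogenes named after Eif4b, and whether their transcripts add to the signal of the probe was not tested.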

How the data were processed

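RNA of 6 rat livers was measured on single-colour Arraystar arrays, 3 livers in each group by the labels. The authors deposited a linear intensity for each spot from Agilent Feature Extraction 11.0.1.1, already background-subtracted and detrended within the array, with no normalization between arrays. A second deposited table held log2 values that the authors had normalized between arrays, by a method not given in the sources used here. The copy of this table used here gives no value for 52 probes, and the Eif4b probe is among these.

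From the intensities, outlier spots were left out, a probe's log2 spot values were reduced to their mean, and this was set relative to the 75th percentile of all probes on its array. That percentile was at 242, 252 and 273 units in BDDLT replicates 1, 2 and 3 and at 217, 226 and 257 units in LT replicates 1, 2 and 3. A probe was detected where at least 50% of its spots were well above background in 3 or more of the 6 livers. Of 27274 detected probes, 27192 had a value on all arrays and were tested with limma 3.58.1 in R 4.3.3, with group and slide for the slide contrast and group alone for the groups, and with Benjamini-Hochberg adjustment over all of them. Of these steps, only the limma fit with group and slide was tested on simulated data. Accessions, compared without versions, named 39 probes.

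The gene and the lists were chosen with earlier results of these data known. Named genes were Eif4b, the 5 named and detected probes of highest and the 3 of lowest correlation with it, listed genes of translation and listed reference genes, of which those without overlap are named, the marker gene Cyp2e1, and, for the spread between spots, the 3 named probes of nearest signal. Outside this rule, Nat1, Gusb, Pdcd10, B2m, Ndfip1 and Slc28a2 were named after their values were seen. Rows of spots were looked at after the data had been seen. The group fit, no scaling and the signal before detrending were added then too, as were further scalings of the counts of probes.

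The labels number the replicates alike in both groups. With the group means subtracted, same-numbered livers correlated over probes with r = 0.139, 0.297 and 0.531 for replicates 1, 2 and 3, each over 0.1, so that the numbers were taken as pairs. Between the numbers, BDDLT replicate 1 with LT replicate 2 had r = 0.291 and BDDLT replicate 2 with LT replicate 1 had r = 0.200, both on a shared slide and both above the 0.139 of the first pair, so that pairs and slides cannot be fully told apart. The slides were read from the scan and array position in the file headers. No coordinates are given, since the file headers name another assembly than GRCr8.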

Additional observations from a re-analysis of the deposited data

How the results depend on the processing

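The BDDLT minus LT difference of Eif4b was negative under all 19 alternatives, between -0.65 and -0.37. The slide and replicate blocks return the reported -0.53 by design, since groups are balanced over slides and numbers. Leaving out a liver or using 1 slide had to keep the sign, as the groups did not overlap. The difference moved by more than the pooled SD within groups, 0.16, only on the second slide alone, at -0.37, with 1 liver a group. There it moved by only slightly more than that SD. Leaving out each liver gave -0.65 to -0.44. The slide difference of Eif4b was negative under all 18 alternatives. The variance and detection filter cannot change it. It passed the threshold only with median scaling, at -0.48, and nothing rests on it. A replicate block could not be fitted for it, since the number fixes the slide. The deposited normalized table used here gives no value for the Eif4b probe, so that this alternative could not be run.

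Between slides, 1355 probes were called by limma, 3752 with no detection filter, 5195 with median scaling, 3277 with no scaling, and from 0 to 1040 when a liver was left out. Only without LT replicate 1 was the count above 0. Without any one of the other 5 it was 0, with between 4665 and 6282 probes at an unadjusted p under 0.05. The median slide difference of all probes was 0.059 as reported, -0.18 with median scaling and 0.24 with no scaling. The probes with no overlap of the groups numbered between 4884, with reference genes, and 7990, with normexp, against 6651.

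Between groups, 484 probes were called by limma, 160 with median scaling, 126 with reference genes, 1460 with normexp, 1064 with a trended and robust variance, 842 over probes detected on all arrays, 22 with no detection filter, 1159 with the slide as a block, 0 with the replicate block (82 to 1797 with it in 5 other settings) and 0 on the first slide alone, where 5780 had an unadjusted p under 0.05. Leaving out a liver gave 0 to 101 calls, with 0 without BDDLT replicate 1, BDDLT replicate 2 or LT replicate 2, where 3540, 2905 and 3053 had an unadjusted p under 0.05. With no scaling, which moved the median difference of all probes from -0.025 to 0.11, 348 were higher and 70 lower, against 307 and 177. Neither Rplp1 nor Rpl13a was called with or without the replicate block.

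The sign of the Rplp1 difference turned with no scaling (0.074), quantile normalization (0.043) and the deposited values (0.038), with an adjusted p between 0.633 and 0.982 over all alternatives. Rpl13a turned with reference genes (-0.011), and without single livers it lay between -0.029, without LT replicate 1, and 0.13, with an adjusted p between 0.579 and 0.99. The causes of these changes were not tested.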
